A study of Mus musculus with 8 samples.

Results

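BM cells of old KO mice without disease were compared with those of sick KD mice by RNA-seq, across the functions and lineages of protein-coding genes. The members were the 4 libraries that the labels give as Gfi1KO Old and Gfi1KD Sick, out of 8 libraries in the series, and every protein-coding gene with enough counts for the test was described. Each library was the total bone marrow of 1 C57Bl6 mouse. The old KO mice are Gfi1 knockouts by their labels, were 158 and 101 days old and are labelled "no AML". The sick KD mice carried a human GFI1 cDNA in the Gfi1 locus with a neo cassette that lowers its expression, were 187 and 78 days old and are labelled "AML", while the study describes their disease as a myeloproliferative neoplasm. No wild-type mouse was among the 4, so each value places one Gfi1 genotype against the other. Genotype and disease differed together between the groups and cannot be told apart here. The other 4 libraries, 2 young KO mice of 48 and 44 days and 2 young KD mice of 39 and 42 days, were used for reference levels.

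Gfi1 is a zinc finger repressor that recruits the histone demethylase Kdm1a and the corepressor Rcor1 to its targets. It is needed for granulocytes to mature, and marrow with little or no Gfi1 accumulates monocytic cells in their place. Whole BM also holds erythroid, lymphoid, megakaryocytic, eosinophil, macrophage and stromal cells, whose genes can be followed as groups. In bulk RNA, fewer cells of a type and less RNA per cell cannot be told apart, and every level below is a share of the counts of its library.

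The libraries held 26642067 to 39308657 counts on genes, and 27.1% to 30.9% of the uniquely aligned reads in old KO and 38.8% to 42.0% in sick KD fell outside annotated genes. Genes of the mitochondrial genome took 0.464% and 0.675% of the counts in old KO against 1.42% and 1.16% in sick KD. Replication-dependent histones, whose transcripts lack a poly(A) tail, took 1.57% and 1.56% against 3.28% and 3.99%. These shares moved with the groups, and their part in the results below was not tested.

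Of 12519 protein-coding genes tested with edgeR, 1344 (10.7%) were higher in old KO and 909 (7.26%) were lower at an adjusted p under 0.05. CPM stands for TMM-scaled counts per 1000000 counts on genes, and over all 14470 genes tested 9.93% were higher and 8.22% lower. The median log2 fold change, old KO minus sick KD, was 0.02 over all protein-coding genes and its median size was 0.87 among those called. Large differences were mostly on one side: 269 genes were higher by more than 2 on the log2 scale and 52 were lower by as much. The 2 groups did not overlap in 66.2% of the genes tested, a share far above that called. Without sick KD 1 the counts were 611 higher and 419 lower, and without old KO 1 they were 894 and 502. Without old KO 2, 583 genes were lower. Red and blue points in the plot of fold change against level show both sets.

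**Figure D1:**
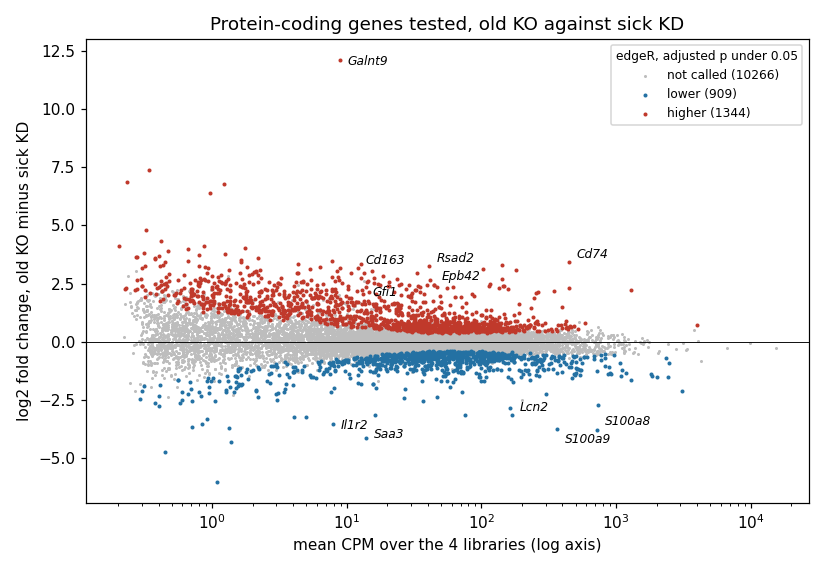
Each point is 1 protein-coding gene, with its mean CPM over the 4 libraries on a log axis and its log2 fold change, old KO minus sick KD. The 1344 genes higher in old KO (red) reach larger differences than the 909 lower genes (blue), and 10266 genes were not called (grey).

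Reads on the mouse Gfi1 gene were counted in all 4 libraries, at 5.33 and 6.95 CPM in sick KD and 12.9 and 28.9 CPM in old KO. Both old KO mice exceeded both sick KD mice, and the log2 fold change was 1.77 ± 0.38 (SE, n = 2 and 2, edgeR adjusted p = 0.0234). The call was lost without sick KD 1 (edgeR adjusted p = 0.0914). The libraries labelled old KO thus held 377 and 1162 counts on the gene named in their label, against 136 and 201 in the libraries labelled sick KD. The young KO mice had 14 and 14.4 CPM and the young KD mice 6.17 and 7.03 CPM on the scale of 8 libraries. The counts are per gene and do not show which exons were read, the deleted part of the KO allele is not given in the sources used here, and the KD allele carries a human cDNA, so these counts check neither label. Gfi1b, the related repressor of erythroid and megakaryocytic cells, had 5.72 and 4.53 CPM in sick KD and 21.7 and 11.99 CPM in old KO (log2 fold change 1.71 ± 0.31, edgeR adjusted p = 0.0149). Of 13 Gfi1 partners and corepressors tested, 15.4% were called, near the 18.0% of all protein-coding genes tested. Of the 13, 2 were higher in old KO and none was lower. These were Kdm1a, at 51.2 and 56.1 CPM in sick KD and 77.3 and 77.4 CPM in old KO, and Rcor1, at 58.4 and 56.5 against 79.6 and 80.3 CPM. Neither was called without old KO 1 or without old KO 2, and no member of the list was then called.

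Nearly all erythroid genes were higher in old KO. Erythroid cells make hemoglobin from globin chains and heme, and their genes are controlled by Gata1 and Klf1. Of 31 erythroid and heme synthesis genes tested, 29 were higher in old KO and none was lower, with a median log2 fold change of 2.13 against 0.02 over all protein-coding genes. The count was 26 to 30 when any one of the mice was left out. Klf1, the erythroid Kruppel-like factor, had 6.66 and 8.57 CPM in sick KD and 50.1 and 33.0 CPM in old KO (log2 fold change 2.44 ± 0.24, edgeR adjusted p = 0.00416). Gata1 had 8.23 and 6.15 CPM against 34.4 and 20.98 CPM. Alas2, the erythroid enzyme that starts heme synthesis, had 34.8 and 57.6 CPM against 312 and 181 CPM. Both old KO mice stood above both sick KD mice for each of these, and old KO 1 was the higher of the pair. Membrane genes followed: Epb42, for protein 4.2 of the red cell skeleton, had 11.4 and 16.0 CPM in sick KD and 96.9 and 53.5 CPM in old KO (log2 fold change 2.45 ± 0.30, edgeR adjusted p = 0.00546). Trim10, an erythroid ring finger protein, had 11.4 and 16.1 CPM against 95.2 and 55.3 CPM. Epor, the erythropoietin receptor, had 2.63 and 2.66 CPM against 16.9 and 9.01 CPM. The 2 members not called were Nfe2 and Urod. Reads that align equally to the paired alpha globin genes Hba-a1 and Hba-a2 were not counted, so their levels are uncertain.

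Promoter sequences are shown for erythroid genes because members moved together and GATA factors are known to bind the letters AGATAAG. In RefSeq promoters (GRCm38.p6, 250 bases before to 50 after the start), 22 of the list's genes had a window and 6 of them (27.3%) held AGATAAG on either strand, against 2.63% of 16300 protein-coding promoters. The windows of Trim10 (chr17:36869324-36869623 on the plus strand) and Epb42 (chr2:121036828-121037127 on the minus strand) are given 5′ to 3′, with the match in capitals. Both show CTTATCT, the same site read on the other strand. The windows of Klf1 and Alas2 held no match to AGATAAG on either strand.
Trim10: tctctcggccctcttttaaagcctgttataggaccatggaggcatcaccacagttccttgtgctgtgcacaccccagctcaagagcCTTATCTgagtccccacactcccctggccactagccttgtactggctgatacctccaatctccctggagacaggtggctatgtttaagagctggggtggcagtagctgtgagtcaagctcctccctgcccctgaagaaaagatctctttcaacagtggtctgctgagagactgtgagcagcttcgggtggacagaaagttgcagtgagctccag
Epb42: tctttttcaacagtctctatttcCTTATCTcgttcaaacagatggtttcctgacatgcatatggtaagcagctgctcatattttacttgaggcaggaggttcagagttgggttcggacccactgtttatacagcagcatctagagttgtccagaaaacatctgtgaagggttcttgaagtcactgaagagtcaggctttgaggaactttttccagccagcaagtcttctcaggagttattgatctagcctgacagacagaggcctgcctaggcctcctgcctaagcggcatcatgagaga
The CACC letters CCACACCC, bound by Klf1, were in 4.55% of the erythroid windows and 3.74% of all. A looser form, CCNCNCCC, was searched first and was in 63.6% and 57.8%, and the stricter letters were chosen after that share was seen. A match is a description of letters in the window and not a site of binding.

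Levels in the young mice place the erythroid difference. On the scale of all 8 libraries, the summed erythroid level was 1765 and 2320 CPM in sick KD, 9138 and 5852 CPM in old KO, 3495 and 6831 CPM in young KO, and 7953 and 3683 CPM in young KD. Both sick KD mice were below every other mouse, and the old KO mice lay among or above the young ones. Megakaryocyte and platelet genes were not called, although 15 of 17 had a positive log2 fold change. None of 17 tested was called with edgeR and the median log2 fold change was 0.63, with 1 member at an unadjusted p under 0.05 and 1 called by DESeq2. With a filter of 1 count in any library edgeR called 10 higher, without sick KD 1 it called 3 and without old KO 2 it called 5. The median was 1.17 without sick KD 1 and 0.19 without sick KD 2. Pf4, platelet factor 4, had 16.0 and 9.02 CPM in sick KD and 24.0 and 14.8 CPM in old KO, so the groups overlapped. Tal1, a factor shared by stem, erythroid and megakaryocytic cells, was higher (18.1 and 21.8 CPM against 84.6 and 50.5 CPM, log2 fold change 1.76 ± 0.25, edgeR adjusted p = 0.00753).

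**Figure D2:**
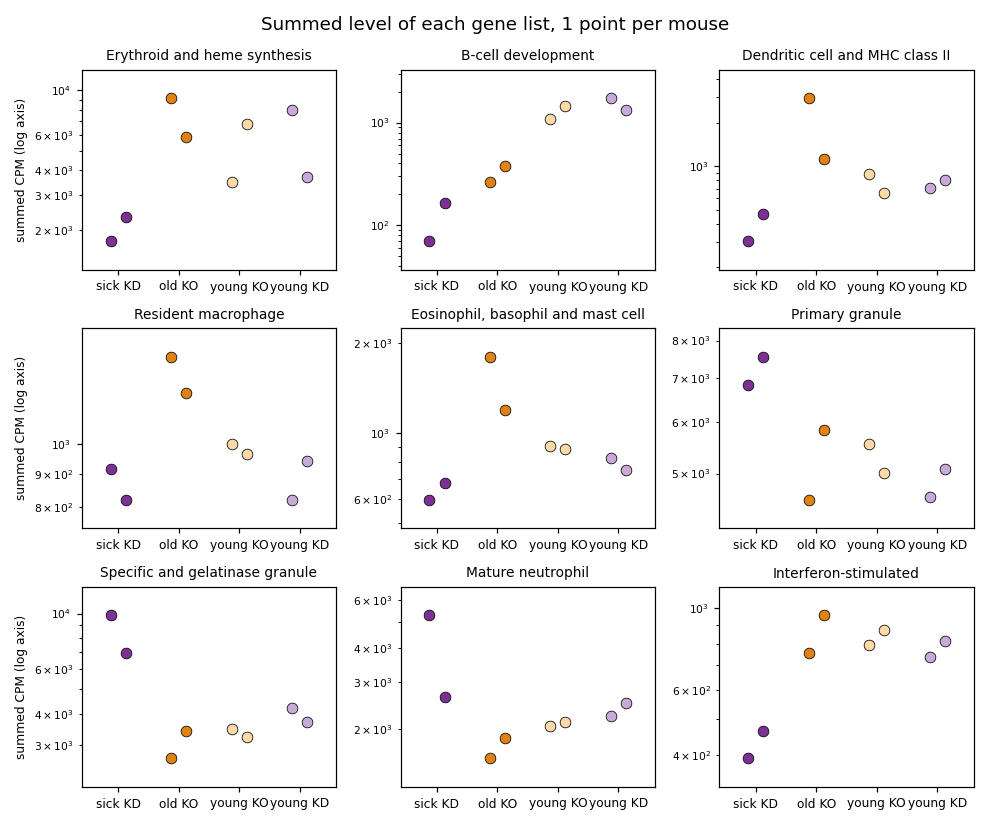
Summed CPM of the members of 9 gene lists in each of the 8 mice (log axis, all 8 libraries scaled together, 1 point per mouse). Sick KD mice lie below every other mouse for erythroid, B-cell, MHC class II, eosinophil and interferon-stimulated genes. They lie above every other mouse for all 3 neutrophil lists, but for mature neutrophil genes sick KD 2 (2637 CPM) is near young KD 2 (2507 CPM). Old KO mice lie above every young mouse for MHC class II, eosinophil and resident macrophage genes.

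Neutrophil genes were among those lower in old KO. Of 16 mature neutrophil genes tested, 8 were lower in old KO and 1 was higher, with a median log2 fold change of −1.01. S100a8, one chain of the antimicrobial protein calprotectin, had 2078 and 627 CPM in sick KD and 71.2 and 128 CPM in old KO (log2 fold change −3.76 ± 0.58, edgeR adjusted p = 0.00972). Its partner S100a9 had 1078 and 277 CPM against 36.8 and 63.9 CPM. The groups stood well apart for both chains, and sick KD 1 had over 3 times the level of sick KD 2. Il1r2, the decoy receptor for interleukin 1, had 19.5 and 9.64 CPM in sick KD and 1.27 CPM in each old KO mouse (log2 fold change −3.52 ± 0.38, edgeR adjusted p = 0.00493). Fpr1 and Fpr2, receptors for formyl peptides, were lower as well (log2 fold changes −2.40 and −2.15). Retnlg, a resistin-like neutrophil gene, was the exception, at 8.93 and 8.12 CPM in sick KD and 37.0 and 21.2 CPM in old KO. Csf3r, the G-CSF receptor, was at 160.5 and 155 CPM against 163 and 148.5 CPM, with a log2 fold change of −0.02 ± 0.12 that was not called.

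Granule genes changed in part. Neutrophils load primary granules at the promyelocyte stage and specific and gelatinase granules later. Of 16 specific and gelatinase granule genes tested, 5 were lower in old KO and none was higher (median log2 fold change −0.63), and 9 were lower without sick KD 2. Without sick KD 1 the median was −0.23, with 4 lower and 1 higher. Lcn2, lipocalin 2, had 411 and 197 CPM in sick KD and 26.0 and 42.2 CPM in old KO (log2 fold change −3.15 ± 0.39, edgeR adjusted p = 0.00546). Chil3, a chitinase-like protein, had 6012 and 4091 CPM against 867 and 1464 CPM. Abca13, a lipid transporter, had 401 and 169.9 CPM against 35.9 and 43.2 CPM. The defining genes of the later granules, Ltf, Camp and Ngp, were at 1.44 to 29.5 CPM over the 4 mice and were not called. Of 9 primary granule genes tested, 4 were lower and none was higher (median −0.57), and 2 were lower without sick KD 1 or without old KO 1. Ms4a3 had 346 and 314 CPM in sick KD and 157 and 187 CPM in old KO (log2 fold change −0.94 ± 0.15, edgeR adjusted p = 0.00967). Serpinb1a, an inhibitor of neutrophil proteases, had 284.5 and 272 CPM against 142 and 149.8 CPM. Mpo, myeloperoxidase, had 2837 and 3371 CPM against 2142 and 2823 CPM and was not called.

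Lcn2 and S100a8 are among the 10 genes with the largest decrease, and their promoters were chosen for printing after the matches were seen. The window of Chil3, searched for the same C/EBP and PU.1 letters, held no match. The C/EBP letters TTGCNNAA were in 40% of the specific and gelatinase granule windows and 9.99% of all protein-coding promoters, and the PU.1 letters GAGGAAG in 33.3% and 13.1%. In the mature neutrophil windows, the list of S100a8, the shares were 17.6% and 23.5%, and in the resident macrophage windows, a list higher in old KO, they were 7.69% and 46.2%. Among all protein-coding genes lower in old KO they were 9.93% and 15.6%. Capitals mark both motifs on either strand, in Lcn2 (chr2:32387690-32387989 on the minus strand) and S100a8 (chr3:90668821-90669120 on the plus strand).
Lcn2: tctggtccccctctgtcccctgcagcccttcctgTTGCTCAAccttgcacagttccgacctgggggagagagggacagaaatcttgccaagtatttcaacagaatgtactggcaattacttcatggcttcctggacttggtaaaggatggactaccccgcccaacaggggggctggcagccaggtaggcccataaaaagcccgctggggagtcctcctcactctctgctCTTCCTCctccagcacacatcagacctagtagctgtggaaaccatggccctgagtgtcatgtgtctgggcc
S100a8: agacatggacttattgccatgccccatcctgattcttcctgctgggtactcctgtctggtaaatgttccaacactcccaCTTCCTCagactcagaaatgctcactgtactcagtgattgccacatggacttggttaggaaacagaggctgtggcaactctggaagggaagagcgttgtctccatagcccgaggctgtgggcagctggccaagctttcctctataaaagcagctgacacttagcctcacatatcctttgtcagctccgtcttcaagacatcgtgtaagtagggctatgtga
In Lcn2 the window held 1 match to each motif, and in S100a8 it held 1 match to the PU.1 letters.

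Of the 10 genes with the largest decrease in old KO, 5 belong to the neutrophil and granule lists above. Of the others, Saa3, an acute phase serum amyloid, had 30.4 and 22.2 CPM in sick KD and 1.82 and 1.27 CPM in old KO (log2 fold change −4.10 ± 0.27, edgeR adjusted p = 0.00266). Vcan, the proteoglycan versican of monocytes, had 1444 and 1109 CPM against 138 and 249 CPM. Wfdc21 had 168 and 102 CPM against 13.5 and 17.1 CPM. Crispld2 and Ms4a4a completed the set with log2 fold changes of −3.12 and −2.55. Every one of these kept its call in each alternative tried. Tnf, the inflammatory cytokine, was also lower in old KO, at 22.7 and 25.8 CPM in sick KD and 7.93 and 5.81 CPM in old KO (log2 fold change −1.82 ± 0.20, edgeR adjusted p = 0.00496). Ccr1, a chemokine receptor of myeloid cells, had 398.5 and 294 CPM against 100.4 and 120.3 CPM.

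**Figure D3:**
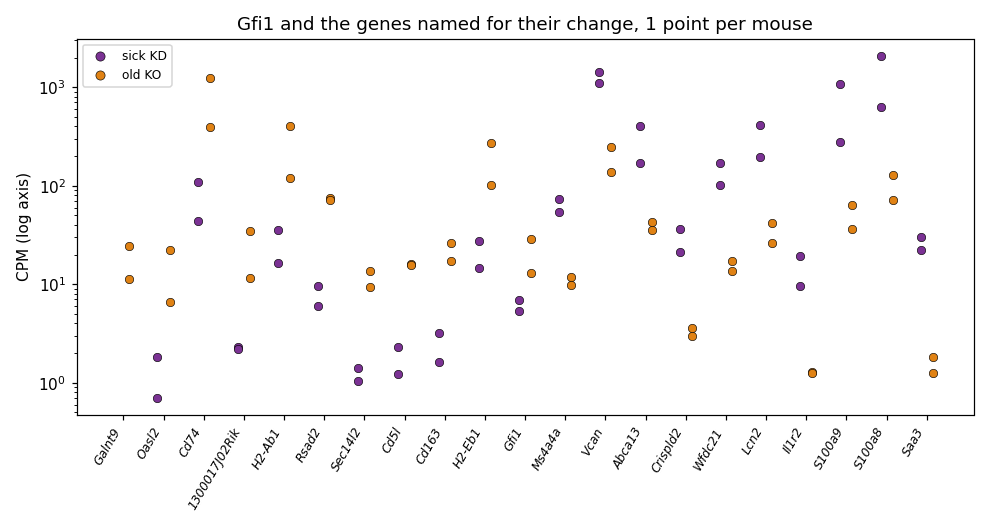
CPM of Gfi1 and of the 10 genes with the largest increase and the 10 with the largest decrease in old KO (log axis, 1 point per mouse, sick KD purple and old KO orange; values of 0 are not drawn). Points of the groups do not overlap for any of the 21 genes, as the rule for the 20 requires.

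Monocyte genes went both ways. Of 19 tested, 2 were higher in old KO and 2 were lower. In either direction 21% were called, near the 18.0% of all protein-coding genes tested. The median log2 fold change of the monocyte genes was −0.09, and −0.26 without sick KD 1. Their summed level on the scale of 8 libraries was 17020 and 16310 CPM in sick KD, above the 13850 and 14420 CPM of old KO and the 11100 to 13320 CPM of the young mice. The defining genes Ly6c2, Ccr2 and Csf1r were not called, and Ccr2 had 2729 and 2309 CPM in sick KD and 2508 and 2233 CPM in old KO. Cx3cr1, the fractalkine receptor of patrolling monocytes, was higher in old KO (78.6 and 101.4 CPM against 212.5 and 195 CPM, log2 fold change 1.18 ± 0.16, edgeR adjusted p = 0.00628). Fn1, fibronectin, was lower, at 3513 and 2908 CPM in sick KD and 1530 and 1923 CPM in old KO. The Fn1 call was lost without sick KD 1 (edgeR adjusted p = 0.0867) or without old KO 1 (edgeR adjusted p = 0.071).

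Resident macrophage genes went the other way from neutrophil genes. These cells clear aged and dying cells and recycle iron from engulfed erythroid nuclei and red cells. Of 18 tested, 13 were higher in old KO and none was lower (median log2 fold change 1.89), and 13 or 14 were called whichever mouse was left out. Cd163, the scavenger receptor for hemoglobin and haptoglobin, had 1.61 and 3.18 CPM in sick KD and 26.3 and 17.1 CPM in old KO (log2 fold change 3.17 ± 0.37, edgeR adjusted p = 0.00512). C1qa, a chain of complement C1q, had 3.45 and 2.77 CPM against 26.1 and 21.6 CPM, and Cd5l had 1.22 and 2.28 CPM against 16.2 and 15.8 CPM. Vcam1 and Siglec1, surface markers of macrophages around erythroid islands, had log2 fold changes of 1.46 and 1.84. Slc40a1, the iron exporter ferroportin, was higher at 20.0 and 10.3 CPM against 38.6 and 32.9 CPM. The defining macrophage gene Adgre1, which encodes F4/80, was not called (179 and 156 CPM against 202 and 169 CPM). On the scale of 8 libraries, the summed macrophage level was 916 and 822 CPM in sick KD and 1360 and 1196 CPM in old KO. The young mice had 821.5 to 1001 CPM, so by this sum sick KD lay among the young and old KO above them. Abundant members that were not called, Apoe, Adgre1 and Cd68, weigh most in the sum. On the scale of 4 libraries Apoe alone had 372 and 319 CPM in sick KD and 444 and 360 CPM in old KO. The sum therefore does not place the called macrophage genes against the young mice.

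Most genes for antigen presentation were higher in old KO but varied between its mice. Of 15 dendritic cell and MHC class II genes tested, 11 were higher and none was lower (median log2 fold change 1.75), and 5 were called without sick KD 1. Cd74, the invariant chain, had 44.0 and 109 CPM in sick KD and 1249 and 394 CPM in old KO (log2 fold change 3.42 ± 0.63, edgeR adjusted p = 0.0151). H2-Eb1, the beta chain of I-E, had 14.7 and 27.2 CPM against 271 and 101.5 CPM and kept its call in every alternative. Old KO 1 had more of each than old KO 2, and sick KD 1 less than sick KD 2. The calls of Cd74 and H2-Ab1 were lost without sick KD 1 (edgeR adjusted p = 0.0526 and 0.0579).

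B-cell genes leaned higher in old KO, and all but Bank1 had their lowest level in sick KD 1. All 20 B-cell development genes had a positive log2 fold change (median 1.55), of which 7 were called higher and none lower. This median was 1.06 without sick KD 1, 2.78 without sick KD 2, 1.74 without old KO 1 and 1.17 without old KO 2. Blnk, an adaptor of the B-cell receptor, had 2.00 and 5.12 CPM in sick KD and 11.7 and 15.2 CPM in old KO (log2 fold change 1.91 ± 0.41, edgeR adjusted p = 0.0247). Cd22 had 3.88 and 6.95 CPM against 16.6 and 19.2 CPM. Early genes differed most between the sick KD mice, as for Rag1, which begins the rearrangement of receptor genes, at 0.588 and 6.91 CPM in sick KD and 11.5 and 34.8 CPM in old KO and not called. Both groups stood below the young mice, whose summed B-cell level was 1080 to 1725 CPM on the scale of 8 libraries, against 261.5 and 377 CPM in old KO and 70.1 and 165 CPM in sick KD.

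Plasma and T-cell genes also leaned higher in old KO. On the scale of 8 libraries, the summed plasma cell level was 557 and 552 CPM in sick KD and 991 and 712 CPM in old KO. The young mice had 516 to 598 CPM, so by this sum sick KD lay among the young and old KO above them. Xbp1, which was not called and leaned lower in old KO (log2 fold change −0.31), weighs heavily in the sum. On the scale of 4 libraries it had 397 and 385 CPM in sick KD and 300 and 329 CPM in old KO. The sum therefore does not place the called plasma cell genes against the young mice. Of 10 plasma cell genes tested, 7 were higher and none lower (median 1.73), including Jchain, the joining chain of secreted antibodies, at 105 and 102 CPM in sick KD and 519 and 252 CPM in old KO. Of 17 T-cell genes, 10 were higher and none lower (median 1.33), and 5 without sick KD 2. Cd4 had 1.18 and 1.76 CPM against 7.62 and 5.31 CPM (log2 fold change 2.13 ± 0.32, edgeR adjusted p = 0.00928), and Lck, the kinase that starts T-cell receptor signaling, had 6.27 and 4.98 CPM against 13.8 and 16.5 CPM. Of 12 NK cell genes, 4 were higher and none lower. Ncr1, a defining NK receptor, was at 0.784 and 1.38 CPM against 1.58 and 1.52 CPM and was not called.

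Most eosinophil and basophil genes were higher in old KO. Of 17 genes of eosinophils, basophils and mast cells tested, 11 were higher and none lower (median log2 fold change 1.36), and 6 were called without sick KD 1. Ccr3, the eotaxin receptor, had 1.92 and 1.76 CPM in sick KD and 17.9 and 12.3 CPM in old KO (log2 fold change 3.03 ± 0.27, edgeR adjusted p = 0.00384). Alox15 had 4.23 and 4.77 CPM against 45.1 and 20.1 CPM. Mcpt8, a basophil protease, had 33.9 and 34.9 CPM against 81.6 and 80.5 CPM, while the mast cell protease Cpa3 was not called (32.3 and 23.9 CPM against 31.6 and 36.4 CPM).

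Some stromal genes were higher in old KO. Of 20 stroma and endothelium genes tested, 8 were higher and none lower (median 1.32), and 5 were called without sick KD 1. Of the 12 not called, 5 had a negative log2 fold change, and for Pecam1, Runx2 and Postn both old KO mice were below both sick KD mice. Cxcl12, the chemokine that keeps stem cells in the marrow, had 13.8 and 9.12 CPM in sick KD and 89.2 and 53.3 CPM in old KO (log2 fold change 2.64 ± 0.29, edgeR adjusted p = 0.00496). Adipoq, adiponectin, and Ibsp, bone sialoprotein, had log2 fold changes of 3.08 and 2.96. Col1a1, a chain of collagen I, was not called, at 2.19 and 4.804 CPM against 4.19 and 24.1 CPM.

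Interferon-stimulated genes formed the functional list with the most called members on the higher side. Interferon acts on a response element in promoters that repeats GAAA, and its targets restrain viruses. Of 24 tested, 17 were higher in old KO and none was lower (median log2 fold change 1.18), and the count was 12 to 21 when any one of the mice was left out. Rsad2, which encodes viperin, had 6.04 and 9.51 CPM in sick KD and 75.4 and 72.0 CPM in old KO (log2 fold change 3.24 ± 0.21, edgeR adjusted p = 0.00266). Ifit3 had 0.666 and 1.24 CPM against 6.01 and 9.16 CPM (log2 fold change 2.98 ± 0.38, edgeR adjusted p = 0.00592), and Ifit1 had 1.61 and 2.01 CPM against 6.66 and 9.71 CPM. Irf7, an amplifier of the response, had 17.7 and 27.0 CPM against 44.8 and 55.3 CPM. Both old KO mice exceeded both sick KD mice for each of these genes. Isg15, a defining member, was not called (0.705 and 2.77 CPM against 5.56 and 6.73 CPM). The summed level was 392.4 and 464 CPM in sick KD, 756 and 956 CPM in old KO and 738 to 870.2 CPM in the young mice, so sick KD stood below all and old KO beside the young.

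Interferon promoters are shown because 11 of 18 windows of the list (61.1%) held the interferon response element on either strand, searched as 2 GAAA repeats that are 2 bases apart, against 3.44% of all protein-coding promoters. Rsad2 lies at chr12:26456403-26456702 on the minus strand and Ifit3 at chr19:34583279-34583578 on the plus strand, with the match in capitals. Ifit3 held 2 matches and Rsad2 held 1, all read as TTTC repeats on the printed strand.
Rsad2: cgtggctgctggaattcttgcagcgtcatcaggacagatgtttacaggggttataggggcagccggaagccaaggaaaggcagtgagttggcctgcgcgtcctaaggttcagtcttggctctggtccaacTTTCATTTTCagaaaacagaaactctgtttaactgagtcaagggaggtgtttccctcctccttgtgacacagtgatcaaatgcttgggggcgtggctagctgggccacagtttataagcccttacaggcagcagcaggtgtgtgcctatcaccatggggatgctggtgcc
Ifit3: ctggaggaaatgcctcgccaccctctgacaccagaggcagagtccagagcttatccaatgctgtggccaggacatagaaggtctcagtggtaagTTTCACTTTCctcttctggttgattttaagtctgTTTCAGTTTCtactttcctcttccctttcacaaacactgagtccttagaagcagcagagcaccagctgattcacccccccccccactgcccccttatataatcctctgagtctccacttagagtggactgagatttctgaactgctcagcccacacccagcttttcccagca
Each window printed was chosen after its matches were seen.

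Other regulators moved gene by gene. In myeloid fate factors, 2 of 18 tested were higher and 3 were lower, beside 10.7% and 7.26% of all protein-coding genes tested. The median log2 fold change of this list was 0.06, with −0.16 without sick KD 1 and 0.33 without sick KD 2. Id2, an inhibitor of basic helix-loop-helix factors and a known Gfi1 target, had 173 and 142 CPM in sick KD and 47.9 and 52.0 CPM in old KO (log2 fold change −1.66 ± 0.14, edgeR adjusted p = 0.00346). Id1 had 49.7 and 56.6 CPM against 26.4 and 27.5 CPM. Spi1, Cebpa and Cebpe, which drive myeloid and granulocyte fate, were not called. Of 21 polycomb, DNA methylation and chromatin genes, 3 were higher and 4 lower. In either direction 33.3% were called, against 18.0% of all protein-coding genes tested. Their median log2 fold change was 0.23, and −0.05 to 0.22 when any one of the mice was left out. Kdm6b, which removes methyl groups from histone H3 lysine 27, had 22.1 and 23.8 CPM in sick KD and 9.51 and 9.36 CPM in old KO (log2 fold change −1.28 ± 0.15, edgeR adjusted p = 0.00531). Dot1l and Kmt2a, both histone methyltransferases, had log2 fold changes of −0.85 and −0.74, and Dnmt3a, a DNA methyltransferase, had 0.82. Meis1 and Hoxa9, which mark self-renewing progenitors, were not called.

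Signals of inflammation and metabolism were mixed. In the NF-kB list, 6 of 19 were higher and Tnf alone was lower, with 2 higher without sick KD 1 and 3 without old KO 1. Relb had 6.23 and 7.92 CPM in sick KD and 19.4 and 16.5 CPM in old KO (log2 fold change 1.34 ± 0.20, edgeR adjusted p = 0.0089), and Cd83 had a log2 fold change of 2.19. Of 22 glycolysis genes, 3 were higher (Hk1, Hk2 and Pfkm, log2 fold changes 0.88, 0.81 and 1.04) and 3 were lower. In either direction 27.3% were called, against 18.0% of all protein-coding genes tested. The 3 higher genes encode kinases of the first steps, and at most 1 gene was lower when any one of the mice was left out. None of 25 mitosis genes and none of 22 cholesterol synthesis genes was called with edgeR, and Mki67, the proliferation antigen, had 2725 and 2041 CPM in sick KD and 1713 and 1751 CPM in old KO. At an unadjusted p under 0.05 there were 6 mitosis and 6 cholesterol genes, and the DESeq2 test called 3 and 1.

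The other functional lists and the stem and progenitor list had a minority of their members called. In 20 of them the share called in either direction ran from 4.35% (lysosome) to 46.7% (iron handling), against 18.0% of all protein-coding genes tested. Over these 20, counting a gene once per list, 58 of 372 members tested were higher in old KO and 17 were lower. The shares of all protein-coding genes tested were 10.7% and 7.26%. These totals were 25 and 10 without sick KD 1, 36 and 11 without old KO 1, and 45 and 11 without old KO 2. Chemokines and their receptors had 5 higher and 1 lower of 17, including Cxcl10, an interferon-induced chemokine, at 0.509 and 0.691 CPM in sick KD and 3.19 and 3.65 CPM in old KO (log2 fold change 2.50 ± 0.32, edgeR adjusted p = 0.00566). DNA repair had 5 higher and 3 lower of 25, with Parp1, a sensor of strand breaks, at 160.2 and 182 CPM against 283 and 289 CPM (log2 fold change 0.74 ± 0.13, edgeR adjusted p = 0.014). Both genes kept their calls whichever mouse was left out. DNA replication had 3 higher and 1 lower of 27, and none of these was called without sick KD 1, old KO 1 or old KO 2. Iron handling had 4 higher and 3 lower of 15, with Fbxl5, which senses iron, at 462 and 330.5 CPM against 174 and 179.9 CPM. Stem and progenitor genes had 4 higher and 1 lower of 22, and Kit and Cd34 were not called. Survival and stress lists moved in a few members. The BCL2 family had 3 higher of 15, p53 targets 3 of 24, heat shock genes 3 of 13, the unfolded protein list 3 of 20 and immediate early genes 3 of 19, with none lower. In p53 targets and the BCL2 family, Bbc3, a BH3-only activator of cell death, was at 2.19 and 2.80 CPM in sick KD and 7.86 and 6.38 CPM in old KO. Without sick KD 1 none of the unfolded protein list and 1 of the BCL2 family was called. Antioxidant genes had 3 higher of 25 and lipid storage and efflux genes 4 of 15, with none lower, and without sick KD 1 these were 0 and 1. JAK-STAT genes had 2 higher and 1 lower of 17, growth factor receptors 1 and 1 of 18, ERK feedback genes 1 and 1 of 10, citrate cycle genes 2 and 1 of 22, adhesion genes 3 and 2 of 18, and fibrosis mediators 3 and 2 of 15. Lysosome genes had 1 higher of 23 and Hox, Meis and Pbx genes 2 of 12. None of 7 phagocyte oxidase genes was called with edgeR, with 1 at an unadjusted p under 0.05 and 1 lower by DESeq2.

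Few members of most housekeeping families were called with edgeR, and each of those called with all 4 mice was lower in old KO. Of 80 cytosolic ribosomal protein genes, 13 were lower and none was higher, and 74 had a negative log2 fold change (median −0.37). No gene of that family was called without old KO 1, and 5 or 6 were without any other mouse. Of 77 mitochondrial ribosomal protein genes, 7 were lower (median −0.16), a share near the 7.26% of all protein-coding genes, with none called without old KO 1 and 1 without sick KD 1 or old KO 2. None of 17 cytosolic aminoacyl-tRNA synthetases (median 0.19) and none of 16 vacuolar ATPase genes (median −0.03) was called with edgeR, with 3 and 5 at an unadjusted p under 0.05 and 1 and 2 called by DESeq2. Of 38 proteasome genes, 36 complex I genes and 31 genes of complexes IV and V, 3, 4 and 1 were lower and none was higher, and without old KO 1 none of these was called lower. With all 4 mice the lower shares of these 3 families were 7.9%, 11.1% and 3.2%, beside 7.26% of all protein-coding genes. Of 55 replication-dependent histones, 47 were lower (median −1.23), which were 47 of the 909 lower calls.

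**Figure D4:**
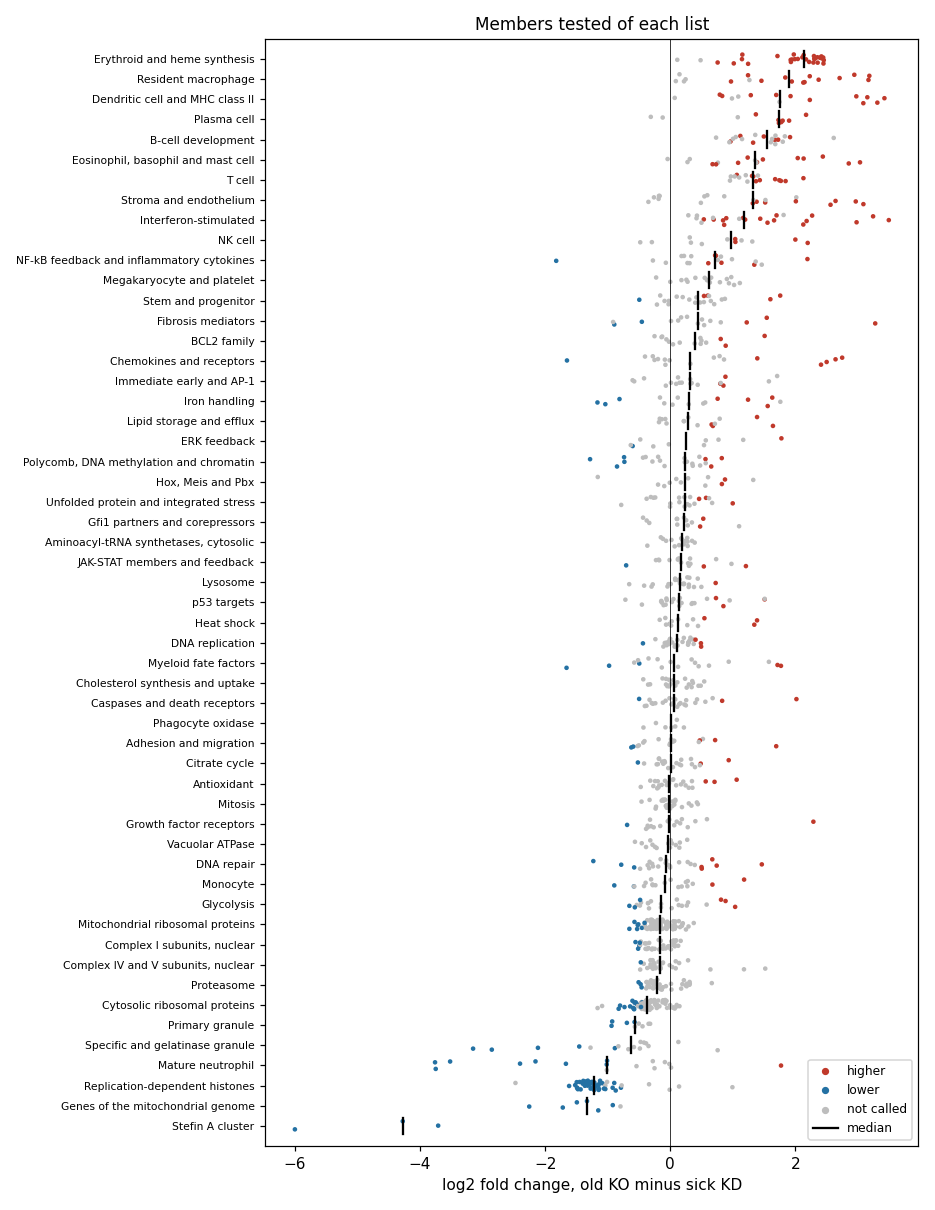
Log2 fold change, old KO minus sick KD, of every member tested of each gene list (1 point per gene), with red and blue points past an edgeR adjusted p of 0.05 and a black bar at the list's median. Erythroid, macrophage and MHC class II lists lie furthest right (medians 2.13, 1.89 and 1.75), and the stefin A cluster, mitochondrial genome and histones furthest left.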

How the data were processed

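Whole BM RNA of 4 mice was compared, 2 old KO and 2 sick KD, with 4 young mice for reference. The authors made stranded poly(A) libraries, aligned reads to mm10 with Tophat 2.0.10 and counted them on Ensembl genes with HTSeq. The deposited counts are raw, and the Ensembl release and strand setting are not given in the sources used here. Tallies of unassigned reads were left out of library sizes. Genes were named with GENCODE M21 (40340 of 41214 matched). Counts were scaled by TMM, filtered with filterByExpr and tested with the quasi-likelihood test of edgeR 4.0.16 (R 4.3.3) over 14470 genes, adjusted by Benjamini-Hochberg, with a common biological coefficient of variation of 0.1632. SE was derived from the F value and the fold change. With 2 mice a group, precision is set mostly by the difference between mice. The script, tested on simulated counts, recovered 181 of 199 changed genes, with 8 false among 189 calls. Genes were named by a rule: Gfi1, the 10 largest increases and decreases with a mean of at least 5 CPM, and members of each list with the largest change or that define it. Rag1, Fpr1, Fpr2, Nfe2 and Urod were named after their values were seen. Members and lists were chosen with earlier results of these data known. Alternatives were DESeq2 1.42.0, other filters and scalings, all 8 mice, GC and length offsets, and each mouse left out. The text prints part of the genes that this rule gives, and some results are not reported here.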

Additional observations from a re-analysis of the deposited data

How the results depend on the processing

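All reported protein-coding calls kept their direction in every one of the 11 alternatives that gave them a value. With a filter of 1 count in any library, 4325 genes were called (2249 protein-coding higher, 1409 lower). With all 8 mice in the fit, 4200 genes were called (2082 and 1621). With GC and length offsets, 1637 protein-coding genes were lower, and 50.7% of protein-coding calls were higher against 59.7% as reported. Leaving out each mouse gave 1221 to 2795 genes, 611 to 1398 protein-coding genes higher and 419 to 1117 lower. The lowest came without sick KD 1, where 42.9% of the reported protein-coding calls held. The cause of these moves was not tested. Fits without a mouse leave a group with 1 mouse, assumed to vary like the other group. Protein-coding scaling gave no value for genes of the mitochondrial genome. No paired analysis was possible because the labels share no replicate number between the groups.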

Other observations

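Genes outside the protein-coding set differed by class. Of 130 small noncoding genes tested, 98 were lower in old KO and none was higher (median log2 fold change −1.73), and of 800 long noncoding genes 98 were lower and 20 higher. Of 742 pseudogenes, 65 were lower and 8 higher, while of 279 genes of other classes or without annotation 65 were higher and 19 lower (median 0.73). Small noncoding genes took 1.51% and 1.60% of the counts in old KO and 3.48% and 4.85% in sick KD. The part of this share in the protein-coding differences was not tested.

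Galnt9, a glycosyltransferase gene, was listed at 0 in both sick KD mice and had 24.2 and 11.2 CPM in old KO. Against 3 counts per library on the same TMM scale, it was at least 95.5-fold higher in each old KO mouse. The groups carry different engineered alleles of Gfi1 and differ in disease as well, and the source of the Galnt9 difference was not tested. The stefin A genes were counted mainly in sick KD 1, and none was called without it.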
